A study of Mus musculus with 27 samples.

Results

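The genes described here are Gfap, Stmn4, Sox10, S100b, Mbp and Cdh19, 6 of the 22855 genes counted in every sample, and all of them are best known from glia or neurons. They were taken by symbol from the count files of both tissues. Gfap and Stmn4 were chosen by their levels in the cardiac fibroblast samples themselves, where earlier results of these data had Gfap high late and Stmn4 high early, so their fibroblast levels are given as a description, with no test. The other 4 genes were chosen as glial companions, and the question was whether they go with Gfap or Stmn4.

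RNA was sequenced from C57Bl/6 mice of 5 ages, with no genetic or drug treatment named in the labels. The ages were postnatal day 1, then 4 and 14 weeks, and then 1 and 1.5 years. There were 12 samples of PDGFRα cardiac fibroblasts, isolated by flow cytometry from hearts, with 3 at postnatal day 1, 3 at 4 weeks and 2 at each later age. There were 15 samples of whole heart, with 3 at each age. By the study's methods, the fibroblast sets of an age came from different hearts and the sequenced hearts were those used for the isolation. The labels do not tie a fibroblast sample to a heart or say whether a sample pools animals, and at the 3 later ages they give fewer fibroblast samples than the methods describe. The comparisons between tissues treat the samples as separate. PDGFRα, the antigen of the sort, is also carried by other mesenchymal cells of the heart and, in the nervous system, by oligodendrocyte precursors. In such bulk samples, fewer cells of a type and less RNA per cell cannot be told apart.

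Glia are the support cells of the nervous system. In the heart they are Schwann cells and related neural crest cells along the autonomic nerves, while astrocytes and oligodendrocytes belong to the brain and spinal cord. Sox10 is the transcription factor that defines the Schwann cell and oligodendrocyte lineages, Mbp encodes myelin basic protein, S100b encodes a calcium-binding protein of Schwann cells and astrocytes, and Cdh19 encodes a cadherin first known from Schwann cell precursors. Gfap encodes the intermediate filament of astrocytes and of unmyelinated Schwann cells, and Stmn4 encodes a neuronal stathmin, one of a family of proteins that bind tubulin.

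On the mm10 genome (GRCm38), Gfap lies at chr11:102887336-102900912 on the minus strand, Stmn4 at chr14:66344296-66361680 on the plus strand, Sox10 at chr15:79154908-79165240 on the minus strand, S100b at chr10:76253853-76261159 on the plus strand and Cdh19 at chr1:110888326-110977584 on the minus strand. All are protein-coding genes in the GENCODE M21 annotation. Promoter sequences from RefSeq (GRCm38.p6), which run from 250 bases before to 50 bases after a gene's start, were matched for Gfap and S100b. They are shown beside the levels because both genes are expressed by astrocytes and by glia of the nerves. The Gfap promoter is chr11:102897151-102897450 on the minus strand, and that of S100b is chr10:76253586-76253885 on the plus strand. The starts are those of RefSeq, and the Gfap window lies within the GENCODE span given above, not at its upstream end. Capitals mark the match to the STAT motif TTCNNNGAA.
Gfap: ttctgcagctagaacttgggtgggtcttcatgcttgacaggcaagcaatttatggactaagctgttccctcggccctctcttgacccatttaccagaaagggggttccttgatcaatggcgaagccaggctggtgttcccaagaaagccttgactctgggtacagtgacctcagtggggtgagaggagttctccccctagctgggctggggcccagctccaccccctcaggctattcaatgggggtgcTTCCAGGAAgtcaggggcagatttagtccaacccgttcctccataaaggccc
S100b: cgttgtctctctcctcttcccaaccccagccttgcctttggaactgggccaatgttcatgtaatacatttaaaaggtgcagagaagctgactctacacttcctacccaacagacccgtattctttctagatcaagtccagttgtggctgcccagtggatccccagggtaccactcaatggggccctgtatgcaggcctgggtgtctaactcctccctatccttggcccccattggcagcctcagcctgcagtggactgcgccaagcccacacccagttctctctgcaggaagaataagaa
The STAT match in Gfap begins 2 bases before the start, and 8.30% of the 32851 promoters in the table hold such a match. The S100b window had none. Of the other motifs searched on both strands, TGANTCA (AP-1, in 7.81% of promoters), ACAAAG (SOX, 18.7%) and TATAAA (13.6%) were in neither window, and CANNTG (E-box, 72.3%) was once in S100b and not in Gfap.

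Total counts per sample were between 54615898 and 76758831 in cardiac fibroblasts and between 46091271 and 67984404 in whole hearts. Levels are given as CPM, the counts of a gene scaled to a common library total after TMM normalization. The floor of detection was set at 3 counts per library. Where all libraries of an age held no more than that, a fold against that age was computed against this floor and is a bound for counting error alone. Fibroblast genes were high at every age, since the summed level of 8 of them was between 19194 and 39483 CPM in the sorted samples and between 733 and 1475 CPM in whole hearts. This sum does not show purity. The summed level of 9 endothelial genes ranged from 318 to 2063 CPM in the sorted samples. At 14 weeks it was 1336 to 1638 CPM there and 749 to 776 CPM in whole hearts. The early fibroblast libraries carry replicate numbers 1 to 3 and the later ones 4 to 6. Xist was at most 0.315 CPM in fibroblasts at 14 weeks and 1 year and at least 137 CPM at the other ages, while the Y-linked gene Ddx3y was at most 0.0813 CPM at 1.5 years, so the libraries of 1 year and 1.5 years differ in these genes. Whole hearts had the same differences, with Xist at most 0.570 CPM at 14 weeks and 1 year and at least 34.8 CPM at 1.5 years, and Ddx3y at least 35.5 CPM and at most 0.397 CPM. At postnatal day 1 and 4 weeks both genes were counted. Ddx3y was 24.8 to 50.8 CPM in fibroblasts of these ages and 71.7 to 83.3 CPM at 14 weeks and 1 year. In hearts of postnatal day 1 and 4 weeks, Xist was at least 6.48 CPM and Ddx3y 1.64 to 33.9 CPM. In either tissue, these genes and age cannot be told apart between 1.5 years and the 2 ages before. The same holds between 14 weeks or 1 year and the 2 youngest ages. For Ddx3y it also holds between 1.5 years and the 2 youngest ages. All comparisons of 1.5 years with postnatal day 1 below carry this limit.

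Gfap was not detected in the younger fibroblast libraries and present in all of the older ones. It had 0 counts in each of the 8 libraries of postnatal day 1, 4 weeks and 14 weeks. It had 902 and 830 counts in the 1-year samples (12.9 and 13.4 CPM) and 1079 and 1119 counts in the 1.5-year samples (17.5 and 17.4 CPM). The groups did not overlap, and the level was 13.2 ± 0.335 (SD, n = 2) CPM at 1 year and 17.5 ± 0.0693 (SD, n = 2) CPM at 1.5 years. Against 14 weeks, expression was at least 280-fold higher at 1 year and at least 372-fold higher at 1.5 years. These are the values by which the gene was chosen.

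Stmn4 had the opposite timing in fibroblasts. It had 0, 1 and 0 counts at postnatal day 1, and then 24.4, 13.5 and 16.8 CPM at 4 weeks. The level was 5.42 and 6.90 CPM at 14 weeks, 5.91 and 2.39 CPM at 1 year, and 4.99 and 1.43 CPM at 1.5 years. All 3 libraries of 4 weeks were above all others, and all later libraries were above postnatal day 1. The 1-year libraries overlapped with those of 14 weeks and of 1.5 years, while both 14-week libraries were above both of 1.5 years. The mean was 18.3 ± 5.62 (SD, n = 3) CPM at 4 weeks, at least 439-fold higher than at postnatal day 1, and was 33.7% of that value at 14 weeks and 17.6% at 1.5 years. Of 5847 genes at the floor in every postnatal day 1 library, Stmn4 and Duox1, which encodes a dual oxidase, were the 2 with over 1000 counts in every 4-week library, a threshold chosen after the values were seen.

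**Figure D1:**
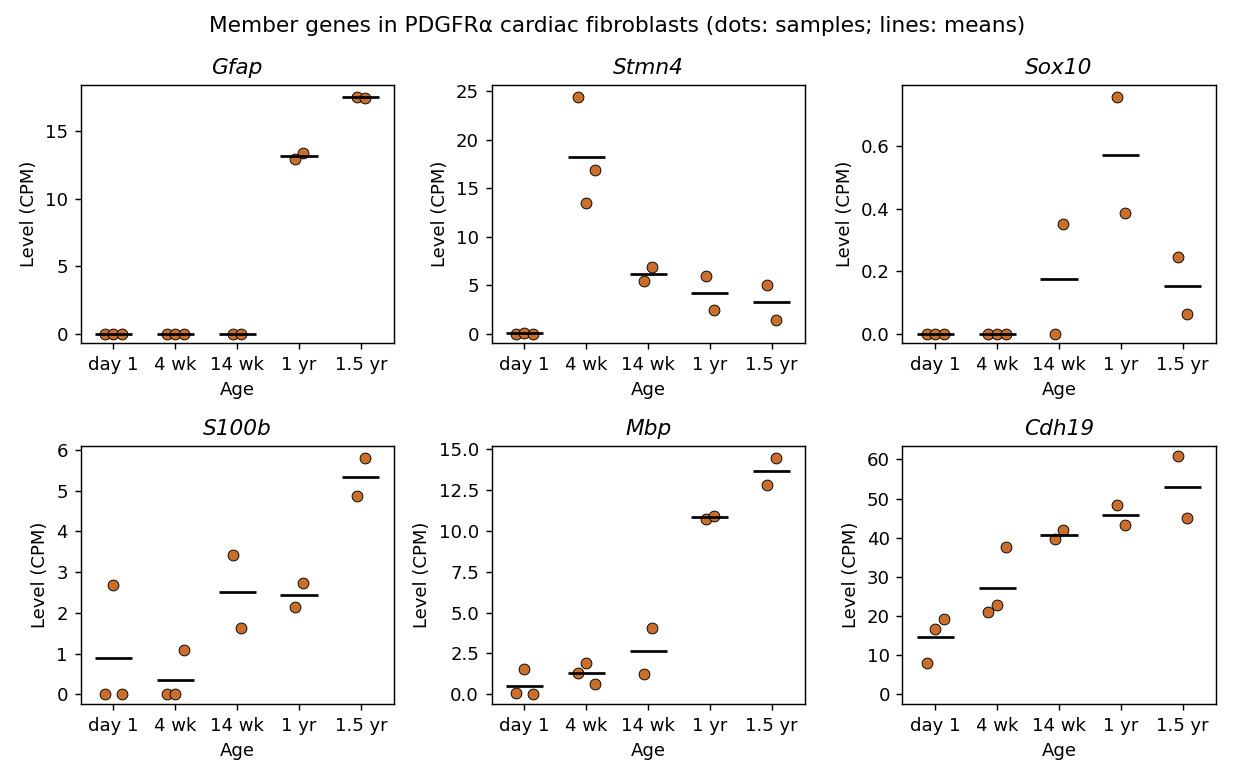
Level of each of the 6 genes (y axis, CPM) in the 12 cardiac fibroblast samples by age (x axis), with a dot for each sample and a line at each mean. Gfap was at 0 in the 8 samples up to 14 weeks and between 12.9 and 17.5 CPM in the 4 older ones, Stmn4 was highest at 4 weeks, and Cdh19 and Mbp were higher in all 4 of the oldest samples than in any other.

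Among the glial companions in fibroblasts, Cdh19 was the most abundant and rose with age. Its level was 8.05, 16.6 and 19.2 CPM at postnatal day 1, 20.96, 22.7 and 37.6 CPM at 4 weeks, and 39.6 and 41.9 CPM at 14 weeks. It was 48.3 and 43.3 CPM at 1 year and 60.9 and 45.1 CPM at 1.5 years. Each age up to 1 year lay above the one before without overlap, and the ages of 1 year and 1.5 years overlapped. Cdh19 differed among the 5 ages (adjusted p = 0.00844, edgeR's quasi-likelihood F test), and it was the 1 of the 4 companions that did, against 19.9% of all genes tested. It was higher at 1.5 years than at postnatal day 1 by 1.86 on the log2 scale (SE 0.34, adjusted p = 0.00191, edgeR's quasi-likelihood F test). No single step between successive ages passed the threshold, and the closest was postnatal day 1 to 4 weeks, where the log2 difference was 0.89 (SE 0.31, adjusted p = 0.0714, edgeR's quasi-likelihood F test).

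Mbp was low in young fibroblasts and high in the same 4 libraries as Gfap. It had 5, 106 and 0 counts at postnatal day 1 (0.0613, 1.55 and 0 CPM). Its level was 1.30, 1.92 and 0.650 CPM at 4 weeks and 1.23 and 4.08 CPM at 14 weeks. It was 10.7 and 10.9 CPM at 1 year and 12.8 and 14.5 CPM at 1.5 years, above every younger library. Between postnatal day 1 and 1.5 years Mbp rose by 4.66 on the log2 scale (SE 1.45, adjusted p = 0.0446, edgeR's quasi-likelihood F test). With Cdh19, 2 of the 4 companions passed in this comparison, against 16.3% of all genes tested. The Mbp call rested on single libraries, since it held in 4 of the 12 fits that left out 1 fibroblast library, with adjusted p values between 7.1e-04 and 0.14 over all alternatives. Over the 5 ages Mbp had an adjusted p of 0.0994, and 0.00233 without the second postnatal day 1 library, the 1 with 106 counts (edgeR's quasi-likelihood F test).

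Sox10, the gene that defines the Schwann cell lineage, was at or near 0 in fibroblasts. It had 0 counts in all 6 libraries of postnatal day 1 and 4 weeks. It had 0 and 25 counts at 14 weeks, 53 and 24 at 1 year, and 15 and 4 at 1.5 years, so that its highest level was 0.759 CPM. The lowest of the 4 oldest libraries, with 0.0623 CPM, lay below 1 of the 14-week libraries, with 0.350 CPM. Sox10 did not pass the test among the 5 ages (adjusted p = 0.209, edgeR's quasi-likelihood F test).

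S100b varied between libraries of the same age. It had 0, 183 and 0 counts at postnatal day 1 and 0, 0 and 80 counts at 4 weeks. Its level was 3.41 and 1.63 CPM at 14 weeks, 2.13 and 2.73 CPM at 1 year, and 4.86 and 5.81 CPM at 1.5 years. The highest mean, 5.34 ± 0.674 (SD, n = 2) CPM at 1.5 years, was above both libraries of 14 weeks and of 1 year. The 4-week libraries lay below those of 14 weeks and of 1 year, and the other pairs of ages up to 1 year overlapped. With 0 counts in 4 of the 6 youngest libraries, S100b did not pass the test among the 5 ages (adjusted p = 0.734, edgeR's quasi-likelihood F test).

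From 14 weeks to 1 year, the step at which Gfap appeared, 0 of the 4 companions passed (1.78% of all genes did), with 0 at an unadjusted p under 0.05 by edgeR's quasi-likelihood F test and 0 called by DESeq2. From 4 to 14 weeks, 0 of 4 passed (3.87% of all genes did), and DESeq2 called 0. From postnatal day 1 to 4 weeks, the step at which Stmn4 appeared, 0 of 4 passed as well (15.5% of all genes did), with Cdh19 the 1 gene under an unadjusted p of 0.05, and by DESeq2 Cdh19 passed. From 14 weeks to 1.5 years 0 of 4 passed (2.72% of all genes did), with log2 fold changes of 2.36 for Mbp, 1.08 for S100b, 0.38 for Cdh19 and -0.20 for Sox10. The median of the 4 was 0.73, beside -0.0029 over all genes.

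The 4 oldest fibroblast libraries also held genes of the brain's astrocytes, at higher levels than the younger libraries. For a list of 11 astrocyte genes without Gfap, 10 were counted, and in 7 of them all 4 of the oldest libraries lay above all 8 younger ones, against 2.73% of all genes tested. The 7 were Aqp4, a water channel of astrocyte end feet, the glutamate transporters Slc1a2 and Slc1a3, the aldolase gene Aldoc, the acyl-CoA synthetase gene Acsbg1, Cldn10 and the neurotensin receptor gene Ntsr2. Aldoc had 514 to 638 counts in the oldest libraries, 108 in the second postnatal day 1 library and at most 1 in the other 7. Aqp4 had 93 to 137 counts in the oldest libraries and at most 1 in all others, and Slc1a2 had 394 to 584 against at most 96. The level of Slc1a3, which the younger libraries also express, was between 35.0 and 40.9 CPM in the oldest libraries and between 18.2 and 33.2 CPM in the others. When the oldest libraries had to lie at least 2-fold above all others, a condition added after the data were seen, 4 of the 10 astrocyte genes remained (Aqp4, Slc1a2, Aldoc and Ntsr2), against 0.394% of all genes, and of the companions Mbp did. Aqp4, Aldoc and Ntsr2 passed the filter on low counts through the oldest libraries alone and so had to lie higher there, and both counts are a description.

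The summed level of the 10 astrocyte genes was between 33.9 and 57.8 CPM in the 8 younger fibroblast libraries and between 71.3 and 89.1 CPM in the 4 oldest. In whole hearts it was between 19.3 and 56.8 CPM. No gene of the list was at 0 in every fibroblast library. By edgeR's quasi-likelihood F test, 0 of the 10 passed from 14 weeks to 1 year (1.78% of all genes did) or to 1.5 years (2.72%), with median log2 fold changes of 2.25 and 2.39, and 3 of 10 passed between postnatal day 1 and 1.5 years (16.3%), all higher. Of 3 oligodendrocyte genes tested, Olig1 lay higher in all 4 oldest libraries than in all others (2.73% of all genes did). It had 165 to 228 counts there, 0 in 7 younger libraries and 75 in the other, so it passed the filter through the oldest. Mobp had 67 to 113 counts against at most 84, and Cldn11 29 to 68 against at most 1634. By the same test, 0 of the 3 passed from 14 weeks to 1 year (1.78%) or to 1.5 years (2.72%).

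Other genes shared the pattern of Gfap more closely. Of 1341 genes with 0 counts in all 8 younger fibroblast libraries, 19 had at least 10 counts in each of the 4 oldest, a threshold chosen after the values were seen. Gfap had the most counts among them. The others included Hepacam, which encodes an adhesion protein of glia, with 54 to 71, the neural stem cell factor Sox2 with 24 to 29, and Snap25, which encodes a synaptic vesicle fusion protein of neurons, with 15 to 31. Igfbp2 had 150 to 204 counts and was the 1 gene beside Gfap with over 100 in each. Fabp7, which encodes the fatty acid-binding protein of radial glia, had 56 to 78 counts in the oldest libraries and at most 1 in the younger.

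**Figure D2:**
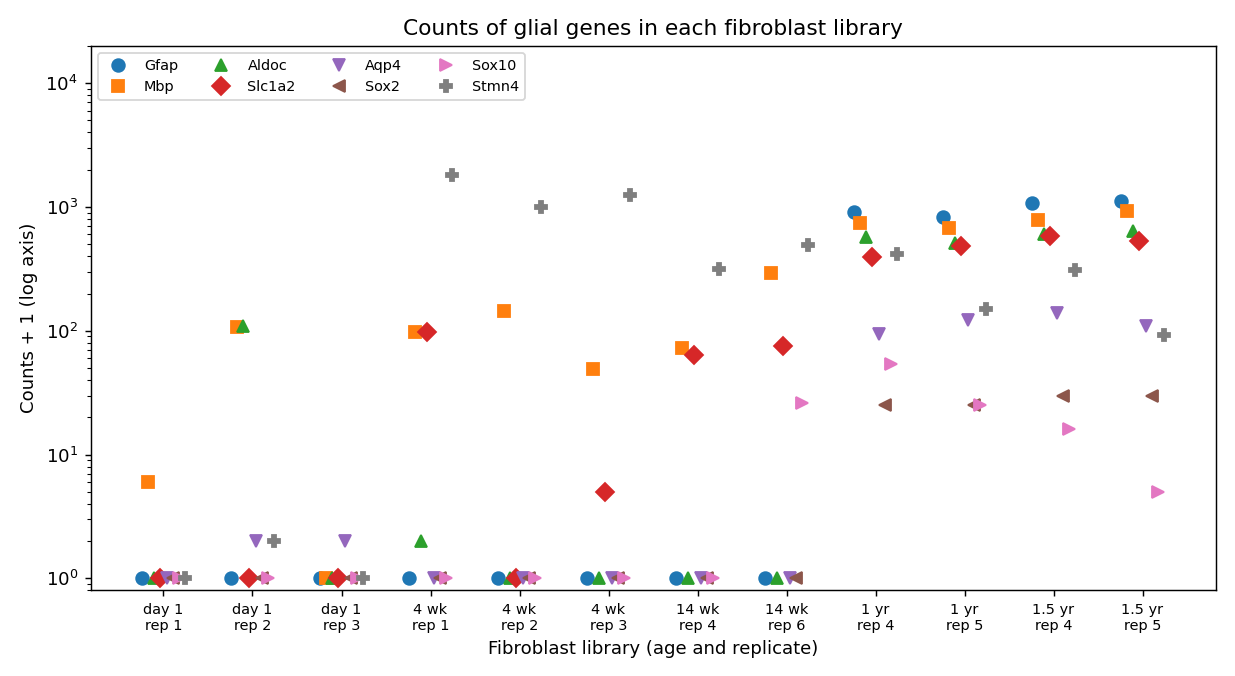
Counts plus 1 (y axis, log axis) of 4 of the 6 genes (Gfap, Mbp, Sox10 and Stmn4) and of 4 glial genes chosen after their values were seen (Aldoc, Slc1a2, Aqp4 and Sox2) in each of the 12 fibroblast libraries (x axis). Gfap and Sox2 were at 0 in the 8 libraries up to 14 weeks, and all 8 genes had counts in the 4 oldest libraries, where Gfap was at 830 to 1119.

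Relative to Gfap, some of these genes were in close amounts across the 4 oldest libraries and others were not. Mbp counts were 82.9% and 81.6% of the Gfap counts in the 1-year libraries and 72.8% and 83.0% in the 1.5-year libraries. Those of Aldoc were 56.1% to 63.7%, those of Slc1a2 43.7% to 58.1% and those of Sox2 2.59% to 2.89%. The ratios of Mbp, Aldoc and Sox2 thus varied by at most 1.14-fold. Over the 10 astrocyte genes the ratio varied between 1.14-fold for Aldoc and 3.65-fold for Aldh1l1, with 2.17-fold for Ntsr2, 2.58-fold for Slc7a10 and 3.30-fold for Cldn10. The ratios to Gfap varied 16.4-fold for Sox10, from 0.357% to 5.88%, 5.57-fold for Stmn4 and 2.02-fold for S100b, while that of Cdh19 varied 1.44-fold. All ratios share the Gfap count and are a description of 4 libraries of like depth. The share of all genes with as close a ratio was not computed. Of 17 neuronal genes tested, only Snap25 lay higher in all 4 oldest libraries than in all others (2.73% of all genes did). It was not detected in the younger libraries, so it had to lie higher. The summed level of 19 neuronal genes was 221 to 231 CPM at 14 weeks, 218 to 224 CPM at 1 year and 123 to 197 CPM at 1.5 years. Several astrocyte genes and the oligodendrocyte gene Olig1, but not the neuronal list, were thus high with Gfap and Mbp in these libraries. Whether the counts came from the sorted cells, from nervous tissue or other cells, or from reads of other libraries was not tested.

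**Figure D3:**
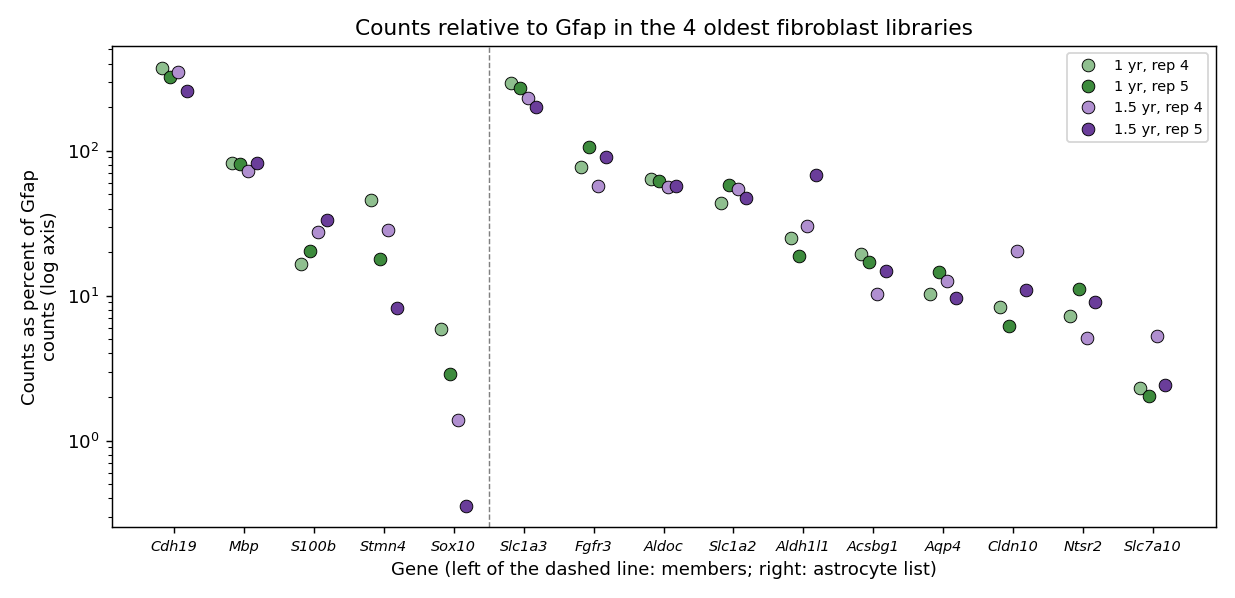
Counts of 5 of the 6 genes (left of the dashed line) and of the 10 astrocyte genes (right) as a percent of the Gfap counts (y axis, log axis), with a dot for each of the 4 fibroblast libraries of 1 year and 1.5 years. The dots of Mbp lie between 72.8% and 83.0% and those of Aldoc between 56.1% and 63.7%, whereas those of Sox10 spread from 0.357% to 5.88%.

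Schwann cell genes shared this pattern in part. Of 14 myelin-related Schwann genes tested, Egr2 and Fa2h were higher in all 4 of the oldest libraries than in all others, and of 14 genes of crest-derived and unmyelinated Schwann cells Fabp7, Sox2 and Gpm6b were (2.73% of all genes were). Fa2h, Fabp7 and Sox2 passed the filter on low counts through the oldest libraries alone, which leaves Egr2 and Gpm6b. Egr2, a transcription factor of myelination that is also an immediate early gene, rose from 14 weeks to 1 year by 1.36 on the log2 scale (SE 0.26, adjusted p = 0.0203) and to 1.5 years by 1.21 (SE 0.26, adjusted p = 0.0284, edgeR's quasi-likelihood F test). It was the 1 gene of either Schwann list that passed in those comparisons, 1 of 14 and 0 of 14 tested, against 1.78% and 2.72% of all genes. Several defining Schwann genes were low in the oldest libraries, with at most 43 counts of Mag, at most 42 of Erbb3 and at most 20 of Foxd3. Among the crest-derived list, Lgi4 (3.72, SE 0.87, adjusted p = 0.0111) and Gpm6b (0.94, SE 0.19, adjusted p = 0.00414) rose and the neurotrophin receptor gene Ngfr fell by 2.58 (SE 0.46, adjusted p = 0.00195) on the log2 scale from postnatal day 1 to 4 weeks (edgeR's quasi-likelihood F test). Thus 2 of the 14 rose and 1 fell (15.5% of all genes passed).

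Of 12 genes that reactive astrocytes raise together with Gfap, all 12 were tested in fibroblasts. From 14 weeks to 1 year, Serpina3n rose by 2.69 (SE 0.32, adjusted p = 0.00205) and Timp1, an inhibitor of matrix metalloproteinases, by 1.87 (SE 0.41, adjusted p = 0.0397) on the log2 scale (edgeR's quasi-likelihood F test). From 14 weeks to 1.5 years the chemokine gene Cxcl10 rose by 3.36 (SE 0.57, adjusted p = 0.0101, edgeR's quasi-likelihood F test). Thus 2 of 12 passed to 1 year and 1 of 12 to 1.5 years, against 1.78% and 2.72% of all genes. The median log2 fold change of the list was 1.00 at the first of these steps and 0.64 at the second. In 4 of the 12 (Lcn2, Steap4, Timp1 and Serpina3n) the 4 oldest libraries lay above all others (2.73% of all genes did). The list also moved at the steps at which Gfap was at 0, with 6 of 12 higher and 2 lower from postnatal day 1 to 4 weeks (15.5% of all genes passed) and 4 higher and 1 lower from 4 to 14 weeks (3.87%). Several of these genes are also expressed by fibroblasts. Among the other intermediate filament genes 0 of 8 passed from 14 weeks to either later age by edgeR's quasi-likelihood F test.

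Stmn4 at 4 weeks coincided with a high level of macrophage genes in fibroblasts. In 5 of 8 macrophage genes all 3 libraries of 4 weeks lay above the other 9, against 1.66% of all genes tested, and the summed level of the 8 was 306 to 532 CPM at 4 weeks, 130 to 227 CPM at postnatal day 1 and 19.7 to 87.5 CPM at the later ages. All 8 had counts above the floor at 4 weeks. In whole hearts their sum was 61.1 to 71.2 CPM at postnatal day 1, 355 to 446 CPM at 4 weeks and 285 to 317 CPM at 14 weeks. It was 444 to 534 CPM at 1 year and 473 to 607 CPM at 1.5 years, where Stmn4 had 0 counts in every heart. The part of the macrophage genes in the Stmn4 values was not tested. Of 17 neuronal genes tested in fibroblasts, Ret, which encodes the receptor of glial cell-derived neurotrophic factors, was the 1 with all 3 libraries of 4 weeks above the other 9. Ret rose from postnatal day 1 to 4 weeks by 4.23 on the log2 scale (SE 0.33, adjusted p = 2.6e-06, edgeR's quasi-likelihood F test), and 2 of the 17 rose and 2 fell (15.5% of all genes passed). The other 3 stathmin genes did not pass in that comparison, and Stmn1, the widely expressed stathmin of dividing cells, fell by 3.59 between postnatal day 1 and 1.5 years (SE 0.76, adjusted p = 0.00564, edgeR's quasi-likelihood F test). Between these ages 1 of the 3 rose and 1, Stmn1, fell (16.3% of all genes passed).

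Genes of the response to tissue dissociation, such as Jun and Egr1, had a summed level that was higher at the older ages, as Cdh19 was. The sum of 10 such genes was 12040 to 17001 CPM at postnatal day 1, 27913 to 30847 CPM at 4 and 14 weeks, 34179 to 36033 CPM at 1 year and 38693 to 40966 CPM at 1.5 years. In whole hearts it was 155 to 573 CPM. Its part in the fibroblast levels was not tested.

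In whole hearts the 6 genes were at 7.23 CPM or less in every sample. Gfap had 16 counts in the first sample of 4 weeks, 26 in the second of 1 year, 74 in the second of 1.5 years and 0 in the other 12. It did not pass the test among the ages (adjusted p = 0.268, edgeR's quasi-likelihood F test). At 1.5 years the fibroblast mean of 17.5 CPM was 44.6 times the heart mean of 0.392 ± 0.679 (SD, n = 3) CPM.

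Stmn4 in whole hearts was highest in a sample of 4 weeks and not detected at 1.5 years. Its level was 0.949, 0.0103 and 0.547 CPM at postnatal day 1, 0.430, 3.90 and 2.12 CPM at 4 weeks, and 0.463, 2.18 and 0.395 CPM at 14 weeks. It was 0.590, 0.0201 and 0.180 CPM at 1 year and 0 in all 3 samples of 1.5 years. The ages up to 1 year overlapped, and the 1.5-year samples lay below all others, of which the lowest held 1 count, under the floor. Stmn4 differed among the ages (adjusted p = 0.0311), the 1 of the 6 genes to do so against 34.3% of all genes tested, and it was lower at 1.5 years than at 14 weeks (adjusted p = 0.0195, edgeR's quasi-likelihood F test), again the 1 of 6 against 12.8%. The hearts of these 2 ages also differed in Xist and Ddx3y, which cannot be told apart from age. With 1.5 years at the floor, the 14-week mean was at least 19.9-fold higher. The call among the ages was lost in 7 of the 15 fits that left out 1 heart sample, with adjusted p values between 0.0016 and 0.071 over the alternatives. In fibroblasts of 1.5 years Stmn4 was at 3.21 ± 2.51 (SD, n = 2) CPM, at least 63.3-fold above the whole heart of that age.

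Sox10 rose in the whole heart after birth. It had 0, 0 and 23 counts at postnatal day 1 (up to 0.247 CPM) and 2.84, 3.55 and 1.12 CPM at 4 weeks. Later samples were between 0.544 and 2.38 CPM, and every sample from 4 weeks on was above every postnatal day 1 sample. From postnatal day 1 to 4 weeks it rose by 4.89 on the log2 scale (SE 1.50, adjusted p = 0.0309, edgeR's quasi-likelihood F test), the 1 of 6 genes that passed against 18.2% of all genes tested. Between postnatal day 1 and 1.5 years it rose by 4.05 (SE 1.44, adjusted p = 0.0416), so that with Stmn4, which was lower (adjusted p = 0.0134, edgeR's quasi-likelihood F test), 2 of 6 passed against 31.8% of all genes. These Sox10 calls held in 11 and 5 of the 15 fits that left out 1 heart sample.

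S100b, Mbp and Cdh19 passed no comparison between ages in whole hearts. Of all 6 genes, 0 passed from 4 to 14 weeks (1.61% of all genes did) or from 14 weeks to 1 year (0.972% did), with 0 at an unadjusted p under 0.05 and 0 called by DESeq2. S100b was at most 0.869 CPM up to 4 weeks and at least 1.10 CPM from 14 weeks on (adjusted p = 0.414 among the ages). Mbp ranged from 0.786 to 7.23 CPM with the 4-week samples below those of 1 year and all other pairs of ages overlapping (adjusted p = 0.522). Cdh19 was between 0 and 3.89 CPM in all samples but replicates 2 and 3 of 1 year, with 7.17 and 6.52 CPM (adjusted p = 0.334, edgeR's quasi-likelihood F test).

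**Figure D4:**
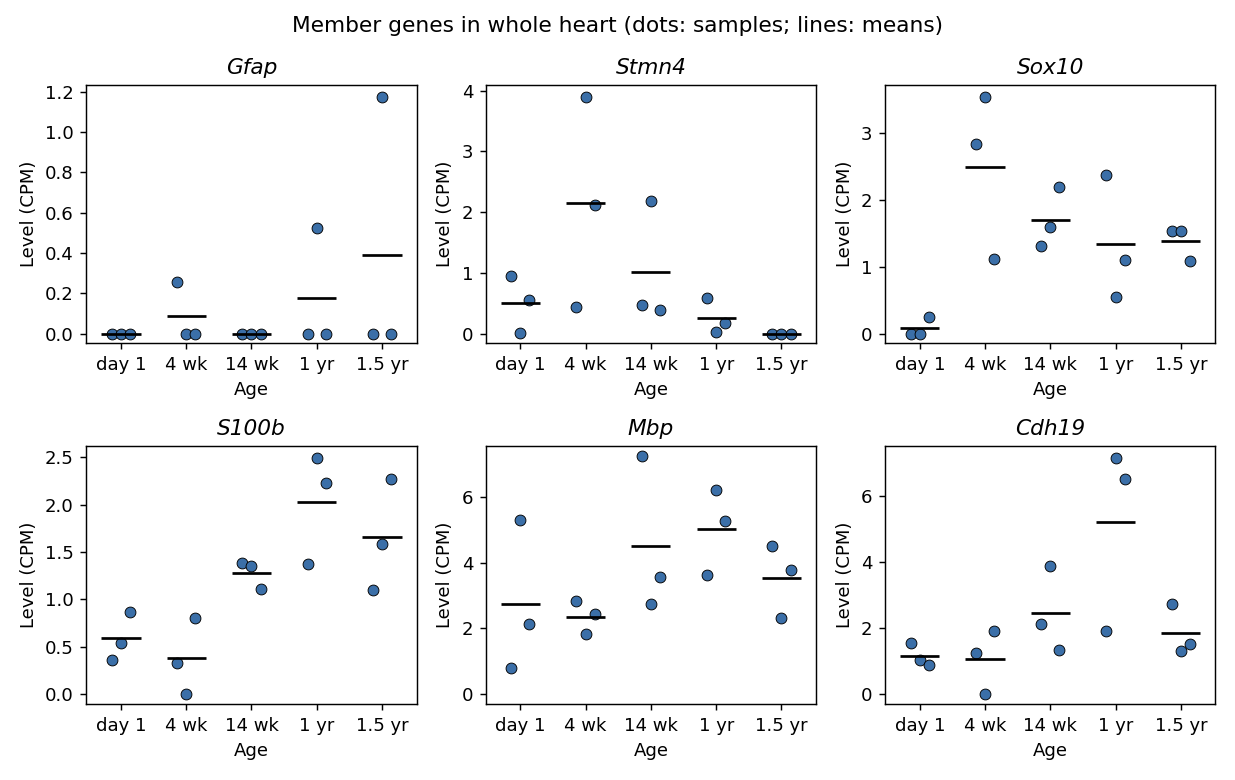
Level of each of the 6 genes (y axis, CPM) in the 15 whole heart samples by age (x axis), with a dot for each sample and a line at each mean. Stmn4 was at 0 in the 3 samples of 1.5 years, Sox10 was lowest at postnatal day 1, and Gfap was above 0 in 3 of the 15 samples.

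Between the tissues, Cdh19 and Sox10 differed in opposite directions. Cdh19 was higher in fibroblasts than in whole heart at every age, by 3.32 on the log2 scale at postnatal day 1 (SE 0.78, adjusted p = 0.00170), 4.32 at 4 weeks, 3.71 at 14 weeks, 2.84 at 1 year (SE 0.80, adjusted p = 0.00716) and 4.47 at 1.5 years (edgeR's quasi-likelihood F test). At 1.5 years the means were 53.0 ± 11.1 (SD, n = 2) CPM in fibroblasts and 1.85 ± 0.776 (SD, n = 3) CPM in whole hearts. Sox10 was lower in fibroblasts at postnatal day 1, by 5.64 on the fitted log2 scale (adjusted p = 0.0360), and at 4 weeks (adjusted p = 0.00152, edgeR's quasi-likelihood F test), when fibroblasts had 0 counts and the whole heart was at least 62.0-fold higher. With same-numbered fibroblast and heart samples as a block, a fit of the postnatal day 1 and 4-week samples added after the data were seen, adjusted p was 0.0553 for Cdh19 and 0.380 for Sox10 at postnatal day 1 and 0.0740 for Sox10 at 4 weeks (edgeR's quasi-likelihood F test). At postnatal day 1 the Sox10 difference came from 23 counts in 1 heart sample, and without it both tissues were at 0. Thus 2 of the 4 companions passed at postnatal day 1 and at 4 weeks, against 32.3% and 36.1% of all genes tested, and 1 of 4 passed at 14 weeks (34.8% of all genes), at 1 year (32.4%) and at 1.5 years (38.9%).

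S100b and Mbp passed at no age between the tissues. The mean of Mbp in fibroblasts was 0.196 times that in whole heart at postnatal day 1 and 3.86 times at 1.5 years, and the adjusted p values were 0.0597 and 0.269 (edgeR's quasi-likelihood F test). With DESeq2 the difference of Mbp at postnatal day 1 passed (adjusted p = 0.0201). Whether the change with age differed between the tissues was tested for the 4 companions as an interaction. From postnatal day 1 to 4 weeks 0 of 4 passed (7.14% of all genes did), and from 14 weeks to 1.5 years 0 of 4 passed (2.71% did), with 0 at an unadjusted p under 0.05 by edgeR's quasi-likelihood F test in both and 0 called by DESeq2.

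Per length of exon, the order of the levels depended on the age. In fibroblasts of 4 weeks, Stmn4 was highest with 9.53 CPM per kilobase, followed by Cdh19 with 6.33. In those of 1.5 years, Cdh19 was highest with 12.4 CPM per kilobase, followed by Gfap with 4.15, S100b with 3.60, Stmn4 with 1.68, Mbp with 1.61 and Sox10 with 0.0502. In whole hearts of 1.5 years, no gene was above the 1.11 CPM per kilobase of S100b.

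Deviations from the age means were compared between all 15 pairs of the 6 genes in each tissue, to see which genes vary together among samples of an age. In fibroblasts Pearson's r was between -0.41 and 0.54, given as a description because the 288 permutations within ages allow no p under 0.00347, too high for a single one of 15 pairs to pass after adjustment. In whole hearts 0 of 15 passed in an exact permutation test within ages, and the pair with the lowest p was Stmn4 with Mbp (n = 15, r = -0.78, rho = -0.78, exact permutation p = 0.0077 and 0.0054, adjusted p = 0.116 for r). Without the 2 samples farthest from the median r was -0.66. S100b and Cdh19 had r = 0.86 and rho = 0.54 in whole hearts (exact permutation p = 0.090 and 0.128, adjusted p = 0.417 for r), and r was 0.36 without the 2 farthest samples.

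By correlation of levels over the 12 fibroblast libraries among 13315 genes with a mean of at least 1 CPM, the genes most like Gfap were Creg1 (r = 0.95), Ch25h (0.94) and Itm2c (0.94). Those most like Stmn4 were Adcy7 (0.99), Cmah (0.99) and Papln (0.98). Those most like Cdh19 were Cpne8 (0.97), Ern1 (0.96) and Camk2d (0.96), and those most like Mbp were Saraf (0.96), Cxx1c (0.95) and Dnmt3l (0.94). For S100b they were Actr3b (0.99), Maneal (0.92) and 2900089D17Rik (0.91), and for Sox10 H6pd (0.91), Svep1 (0.90) and Cxcl16 (0.89). None of these genes is in the glial lists, and libraries of 1 age share these correlations. The 4 genes nearest to Gfap on chromosome 11 were also read in fibroblasts. Eftud2 was between 62.0 and 79.7 CPM in the age means, Kif18b was at 26.97 CPM at postnatal day 1 and 0.241 CPM at 1.5 years, and Ccdc103 was at most 0.705 CPM in any library. C1ql1, which encodes a secreted protein of the C1q family, was highest at 1.5 years, with at most 28 counts up to 14 weeks, 17 and 58 counts at 1 year and 72 and 83 counts at 1.5 years.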

How the data were processed

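Gene expression was measured by RNA-Seq of polyA RNA. The authors sequenced single-end reads, mapped them to mm10 with STAR 2.5.3a and deposited the counts of reads per gene, without normalization. The gene annotation and the strand used for counting are not given in the sources used here, so reads of a gene and its antisense partner cannot be told apart. The 6 genes, the gene lists and the tests were chosen with earlier results of these data known.

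Genes were kept by filterByExpr, scaled by TMM and tested with edgeR 4.0.16 (R 4.3.3), with all ages of a tissue in one quasi-likelihood fit (18759 genes in fibroblasts, 17995 in hearts) or both tissues together (20650 genes). P values were adjusted by the Benjamini-Hochberg method, with a threshold of 0.05, and all 6 genes passed the filter. Each SE is the log2 fold change over the square root of F. All tests were two-sided. Samples of an age varied by a common biological coefficient of 87.9% in fibroblasts and 71.8% in hearts. Correlations used log2 CPM with a prior count of 2 (scipy 1.17.1, numpy 2.4.6, pandas 2.3.3), and plots matplotlib 3.10.9. The named genes are the 6, the genes of each list with the lowest adjusted p or that define it, and the 3 most alike per gene. Genes of the oldest libraries were named after their values were seen. Positions are from GENCODE M21, which held 21796 of the 22855 symbols (95.4%). None of the 24 pairs of samples of an age held identical counts. The alternatives were DESeq2 1.42.0, other scalings and filters, fits of only 2 ages, a replicate block and leaving out each sample. The scripts were tested on simulated data. Reads carry no molecular identifiers, so floors cover counting error only.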

Additional observations from a re-analysis of the deposited data

Results flagged for a closer look

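Between postnatal day 1 and 1.5 years, Stmn4 moved in opposite directions in the tissues. In both, the mean was highest at 4 weeks and fell after it. At 1.5 years it was 17.6% of the 4-week mean in fibroblasts and 0% in whole hearts. The lowest postnatal day 1 heart sample held 1 count, under the floor of 3, and cannot be told from 0. At 1.5 years its mean was 3.21 CPM in fibroblasts, with both samples above all 3 of postnatal day 1, and 0 CPM in whole hearts, with all 3 samples below those of postnatal day 1. The difference between the tissues was not tested for this gene, which was chosen for its fibroblast pattern.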

How the results depend on the processing

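Cdh19 was called among the fibroblast ages, between postnatal day 1 and 1.5 years and against whole heart at every age under all alternatives run but one, the block across tissues at postnatal day 1. Other counts of the 6 genes called moved. In fibroblasts, between postnatal day 1 and 1.5 years, 1 companion in place of 2 passed with DESeq2, with at least 10 counts in every sample or with only the 2 ages compared, and 1 to 3 when 1 library was left out. From postnatal day 1 to 4 weeks 1 in place of 0 passed with DESeq2 or the stricter filter, and 0 to 1 when 1 library was left out. Among the 5 ages 1 to 2 passed, with 2 without replicate 2 or replicate 3 of postnatal day 1. In whole hearts the stricter filter left Mbp alone and 0 were called. With only the 2 ages compared 0 passed from postnatal day 1 to 4 weeks or to 1.5 years. With library size only 1 in place of 2 passed between postnatal day 1 and 1.5 years, and DESeq2 called 2 in place of 1 among the ages. Leaving out 1 heart sample gave 0 to 1 called among the ages, from postnatal day 1 to 4 weeks and from 14 weeks to 1.5 years, and 1 to 2 between postnatal day 1 and 1.5 years. Between the tissues, DESeq2 called 2 in place of 1 at 14 weeks and at 1.5 years. Leaving out 1 library gave 1 to 3 at postnatal day 1 and 0 to 1 interactions from postnatal day 1 to 4 weeks. S100b at postnatal day 1 had log2 differences between -8.46 and 0.84, with the lowest value without the second postnatal day 1 fibroblast library, which left fibroblasts at 0 counts. No pair of genes was called in whole hearts under any alternative. Astrocyte genes with the oldest libraries above all others were 4 in place of 7 when these had to lie at least 2-fold apart.

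Samples with the same replicate number did not deviate together (r between -0.032 and 0.036 in 7 fibroblast pairs and between -0.062 and 0.103 in 30 heart pairs), so no effect shared by a number was seen. With the replicate block, 1 fibroblast companion, Mbp, passed from 14 weeks to 1 year and to 1.5 years in place of 0, 0 in place of 1 heart gene passed among the ages, and 1 in place of 2 passed between postnatal day 1 and 1.5 years. Nor did same-numbered fibroblast and heart samples of an age deviate together (r between -0.034 and 0.017 in 6 pairs). In fits of the postnatal day 1 and 4-week samples of both tissues, added after the data were seen, the replicate block across tissues left 0 in place of 2 companions called at postnatal day 1 and 1 in place of 2 at 4 weeks. The same samples without the block gave 1 at postnatal day 1 and 2 at 4 weeks.

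In libraries with 0 counts of Sox10 or S100b, levels under the floor of 3 counts were not detectable.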
